A study of Mus musculus with 24 samples.

Results

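The insulin receptor, the proteins that carry its signal and the FOXO factors it controls were examined in mouse liver as 9 genes chosen by name. These were Insr, Irs1, Irs2, Grb14, Pik3r1, Akt1, Akt2, Foxo1 and Foxo3, out of 37074 gene names on the array and 18653 genes that could be tested. Each gene was read from its brightest probe, by mean Cy5 signal over 24 arrays. The liver samples came from C57BL/6JRcc mice, all labelled female and housed singly, that received a semi-synthetic diet from 3 weeks of age for 3 weeks. In the GLU+GAL diet the monosaccharide was glucose and galactose in equal parts (12 mice), and in the GLU diet it was glucose alone (12 mice). Both diets drew 16% of energy from fat, 20% from protein, 32% from starch and 32% from monosaccharide. At postnatal day 42 all mice were killed without food and in the light phase, and RNA of the right liver lobe was taken. Each mouse's RNA carried Cy5 and was hybridised on its own 2-colour Agilent array against a Cy3 pool made from all 24 mice, so a log2 ratio of 0 means the level of that pool. No dyes were swapped.

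Insulin binds its receptor at the hepatocyte surface, the receptor phosphorylates docking proteins, and these recruit a lipid kinase whose product activates the AKT kinases. AKT phosphorylates FOXO factors and so keeps them out of the nucleus. In the food-deprived liver, when insulin is low, FOXO factors are nuclear and drive genes of glucose output and, in a feedback arm, Irs2 itself. The arrays measure RNA only, so neither phosphorylation nor nuclear FOXO was seen here.

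All 9 genes were well above background in Cy5 on all 24 arrays. Over a local background between 32.5 and 39.0, the mean Cy5 signal was 181 for Insr, 349 for Foxo3, 507 for Pik3r1, 1268 for Irs1, 1814 for Foxo1, 3252 for Irs2, 4327 for Grb14, 4526 for Akt1 and 5398 for Akt2. These are brightnesses of different probes and give no order of RNA levels between genes. No spot of the 9 was saturated or flagged. All 10 hepatocyte markers and all 10 markers of Kupffer cells, the liver's macrophages, were well above background on every array, while 0 of 6 kidney and adrenal, 3 of 7 pancreas, 5 of 7 skeletal muscle and 5 of 6 adipocyte markers passed the filter. Between 46.6% and 51.3% of spots were well above background in Cy5. The array of GLU+GAL mouse 4 stood apart in its pool channel, where 36.5% of spots were well above background and the median correlation with the other pool channels was 0.9933, against 0.9972 for the next lowest array. GLU+GAL mouse 12 gave signal well above background for the Y-linked genes Ddx3y and Eif2s3y but not for Xist, the reverse of the other 23 arrays, which goes against that mouse's female label. Where a result turned on either array, its value without that array is given beside it, except for the relation of Insr with the muscle markers.

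The probe of the docking protein gene Irs2 is shown because the firmest correlation found here was measured with it. The promoters of Irs2 and of the genes it correlated with are shown beside it as sequence context, and no test here links the correlations to them. The probe on chromosome 8 reads the following bases of the transcript.
Irs2 probe: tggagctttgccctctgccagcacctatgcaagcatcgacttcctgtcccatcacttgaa
The 250 bases before the RefSeq start of Irs2 (GRCm38.p6, chr8:11008930-11009179, minus strand, promoter) held 1 match to the insulin response motif TGTTTTG, shown in capitals, which starts 37 bases before the transcript start. The same window of Igfbp1 (chr11:7197537-7197786, plus strand, promoter), the gene for a secreted binding protein of insulin-like growth factors, held 1 match on the opposite strand, CAAAACA, 108 bases before its start. Pck1 (chr2:173152823-173153072, plus strand, promoter), which encodes the cytosolic enzyme that commits carbon to glucose synthesis, held none.
Irs2 promoter: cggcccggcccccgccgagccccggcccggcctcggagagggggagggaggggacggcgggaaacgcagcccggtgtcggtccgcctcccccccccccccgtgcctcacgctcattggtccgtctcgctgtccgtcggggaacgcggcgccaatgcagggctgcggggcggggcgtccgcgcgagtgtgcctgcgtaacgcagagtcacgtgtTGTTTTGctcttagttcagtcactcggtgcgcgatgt
Igfbp1 promoter: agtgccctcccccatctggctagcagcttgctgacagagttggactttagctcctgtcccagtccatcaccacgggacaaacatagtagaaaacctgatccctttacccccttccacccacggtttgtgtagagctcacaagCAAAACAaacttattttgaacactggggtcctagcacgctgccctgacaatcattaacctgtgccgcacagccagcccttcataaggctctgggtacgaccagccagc
Pck1 promoter: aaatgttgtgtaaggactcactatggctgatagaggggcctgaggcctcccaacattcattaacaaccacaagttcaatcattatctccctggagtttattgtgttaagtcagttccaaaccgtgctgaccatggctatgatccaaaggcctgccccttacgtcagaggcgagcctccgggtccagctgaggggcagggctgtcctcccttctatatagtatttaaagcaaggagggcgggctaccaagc
Searched on both strands, TGTTTTG occurred in 5.56% of 32851 such RefSeq windows and the forkhead motif TGTTTAC in 3.17%. The motifs share their first letters, TGTTT, and 8.51% of windows held either one. Irs1 held 2 matches to TGTTTTG, 111 and 32 bases before its start, and 1 window of Akt1 held TGTTTAC. The windows of Akt2, Foxo1, Foxo3, Grb14 and Pik3r1 held neither. No window was available for Insr, so its promoter was not searched. A match describes letters in a window and does not by itself show a site.

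None of the 9 genes passed the threshold for a difference between diets once all genes were considered. In limma, 0 of 9 passed an adjusted p of 0.05 over all 18653 genes, as did 0% of all genes. At an unadjusted p under 0.05 there were 3 of 9, Akt1, Grb14 and Pik3r1, where 4.3% of all genes were so called (1.65% higher and 2.66% lower in GLU+GAL). The mean was lower in GLU+GAL for 6 of 9 genes, as it was for 49.2% of all genes. The largest limits that the 95% intervals allow among the 9 were log2 differences of -0.43 for Insr and 0.39 for Irs2. In whole liver, fewer cells of a type and less RNA per cell cannot be told apart.

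Insr encodes the receptor that insulin binds. Its log2 ratio to the pool was -1.12 at the lowest, 0.16 at the median and 0.45 at the highest in GLU+GAL livers, against -0.28, 0.30 and 0.39 in GLU livers. The groups overlapped, and the lowest value was that of GLU+GAL mouse 4, far under every other mouse. The difference was -0.18 ± 0.12 (SE, n = 12 each, limma adjusted p = 0.999), -0.07 without that mouse and -0.05 in Cy5 alone. Within slides 1, 2 and 3 it was -0.03, -0.11 and -0.39, and mouse 4 was on slide 3. The Insr probe was dim, at a mean Cy5 signal of 181 over a local background of 35.1. On the array of mouse 4 both channels lay outside the range of the other arrays. The pool channel gave Insr 7.99 on the log2 scale, against 6.98 to 7.54, and Cy5 gave 7.31, against 7.45 to 8.06. A second, dimmer Insr probe, well above background on 12 arrays, ran against the first over the 24 mice (r = -0.61) and differed by 0.05 ± 0.07 (SE).

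Irs1 and Irs2 encode the docking proteins that the receptor phosphorylates. Irs1 spanned -0.22 to 0.33 with a median of 0.07 in GLU+GAL livers, and -0.36 to 0.61 with a median of 0.05 in GLU livers. Its groups overlapped throughout, with GLU mice at both ends. The difference was -0.02 ± 0.09 (SE, n = 12 each), and 0.23 within slide 3, where it pointed the other way from slides 1 and 2 (-0.10 and -0.19).

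Irs2 had a lowest log2 ratio of -0.39, a median of -0.11 and a highest of 0.86 in GLU+GAL livers, against -0.45, -0.12 and 0.54 in GLU livers. The high livers were few and came from both diets, namely GLU+GAL mice 3 and 1 (0.86 and 0.64) and GLU mice 12 and 1 (0.54 and 0.47). The difference was 0.11 ± 0.14 (SE, n = 12 each, permutation p = 0.464), with 5 of 12 GLU+GAL mice above the GLU mean. It was 0.17, -0.09 and 0.26 within slides 1, 2 and 3.

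Grb14 encodes an adaptor that binds the active receptor and inhibits its kinase. Its log2 ratio was -0.33 at the lowest, -0.14 at the median and 0.04 at the highest in GLU+GAL livers, against -0.40, -0.25 and -0.07 in GLU livers. The groups overlapped, but 11 of 12 GLU+GAL mice lay above the GLU mean. The difference was 0.10 ± 0.05 (SE, n = 12 each, limma p = 0.0298, adjusted p = 0.999, permutation p = 0.0179), with 0.21, 0.08 and 0.02 within slides 1, 2 and 3. A second bright Grb14 probe, which the array's design assigns to another transcript, differed in the opposite direction, by -0.10 ± 0.05 (SE, limma p = 0.0569), although both probes correlated over mice (r = 0.45). Another, dim probe differed by 0.07 ± 0.11 (SE).

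Pik3r1 encodes a regulatory subunit of the lipid kinase, the part that binds docking proteins. Its probe on chromosome 13, the gene's only one on the array, is shown because no second probe could be set beside it.
Pik3r1 probe: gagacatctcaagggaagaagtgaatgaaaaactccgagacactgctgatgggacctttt
Its log2 ratio was -0.75 at the lowest, -0.27 at the median and -0.03 at the highest in GLU+GAL livers, against -0.55, -0.12 and 0.17 in GLU livers. The groups overlapped, with 2 of 12 GLU+GAL mice above the GLU mean. The difference was -0.17 ± 0.08 (SE, n = 12 each, limma p = 0.0499, adjusted p = 0.999, permutation p = 0.0612). It was near 0 within slide 1 (-0.0035) and -0.33 and -0.18 within slides 2 and 3. The lowest mouse was GLU+GAL 4, without which the difference was -0.13 with an unadjusted p of 0.101.

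Akt1 and Akt2 encode the kinases below the lipid signal, of which Akt2 is the form tied to insulin's control of glucose. Akt1 was -0.03 at the lowest, 0.11 at the median and 0.38 at the highest in GLU+GAL livers, against 0.10, 0.30 and 0.40 in GLU livers. Of the GLU+GAL mice, 2 of 12 lay above the GLU mean, and these reached into the upper part of the GLU range. The difference was -0.15 ± 0.05 (SE, n = 12 each, limma p = 0.00351, adjusted p = 0.985, permutation p = 0.00263). It was -0.17, -0.14 and -0.14 within slides 1, 2 and 3, and -0.15 without GLU+GAL mouse 4 and without mouse 12. The other Akt1 probes, both dimmer, differed by -0.02 ± 0.05 and 0.10 ± 0.07 (SE) and correlated with the first at r = 0.21 and 0.16.

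Akt2 was the steadiest of the genes. Its log2 ratio ran from -0.06 to 0.23 with a median of 0.02 in GLU+GAL livers, and from -0.04 to 0.23 with a median of 0.08 in GLU livers. The groups overlapped, with 2 of 12 GLU+GAL mice above the GLU mean. The highest GLU+GAL value was that of mouse 11, and the next was 0.10. The difference was -0.05 ± 0.04 (SE, n = 12 each), and its other probes differed by -0.05 ± 0.06 and -0.03 ± 0.06 (SE). Those probes, both dimmer but well above background on all 24 arrays, did not follow the first over mice (r = -0.15 and -0.30).

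Foxo1 and Foxo3 encode the transcription factors that AKT holds outside the nucleus, and Foxo1 is the one best known for glucose output in liver. Foxo1 ran from -0.36 to 0.19 with a median of -0.05 in GLU+GAL livers, and from -0.43 to 0.11 with a median of -0.06 in GLU livers. Foxo3 ran from -0.14 to 0.42 with a median of 0.15 in GLU+GAL livers, and from -0.23 to 0.42 with a median of 0.10 in GLU livers. Both pairs of groups overlapped across nearly their whole ranges. The differences were -0.01 ± 0.07 for Foxo1 and 0.05 ± 0.08 for Foxo3 (SE, n = 12 each). A second Foxo1 probe followed the first closely over mice (r = 0.85), with a difference of -0.01 ± 0.07 (SE). The other Foxo3 probes, both dimmer, were well above background on 22 and 12 arrays. They correlated with the brightest Foxo3 probe at r = 0.19 and 0.25 and differed by 0.02 ± 0.06 and -0.02 ± 0.07 (SE). Within slide 3 the difference was 0.10 for Foxo1 and 0.27 for Foxo3, and within slide 2 it was -0.06 and -0.11. Without GLU+GAL mouse 4 it was -0.02 for Foxo1 and 0.03 for Foxo3.

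The 3 genes at an unadjusted p under 0.05 were also read from the Cy5 channel alone, without the pool. There the difference was -0.15 for Akt1, 0.13 for Grb14 and -0.14 for Pik3r1, each in the direction of the log ratio, with unadjusted limma p of 0.0192, 0.024 and 0.168. With all probes of a gene averaged, Akt1 was -0.02 and Grb14 0.03, while Pik3r1 has no second probe. Under median normalisation of the arrays none of the 3 passed the unadjusted threshold, although the differences were of similar size (-0.13 for Akt1, 0.13 for Grb14 and -0.18 for Pik3r1).

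**Figure D1:**
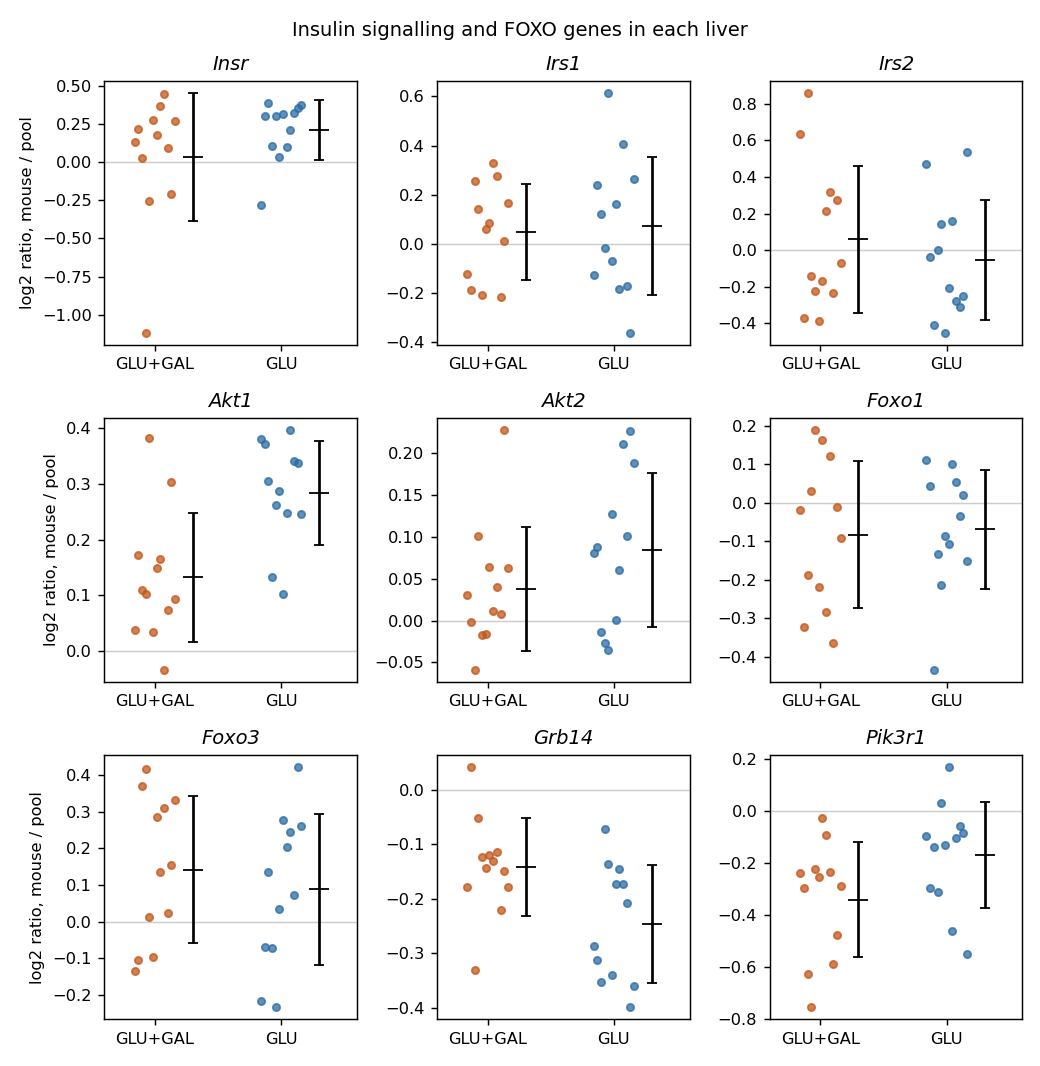
Log2 ratio of each liver to the pool for the 9 genes, 1 point per mouse, GLU+GAL left and GLU right, with the mean and SD of 12 mice beside each group and a scale of its own per panel. The groups overlap for every gene, and GLU+GAL mouse 4 is the lone low point of Insr at -1.12.

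**Figure D2:**
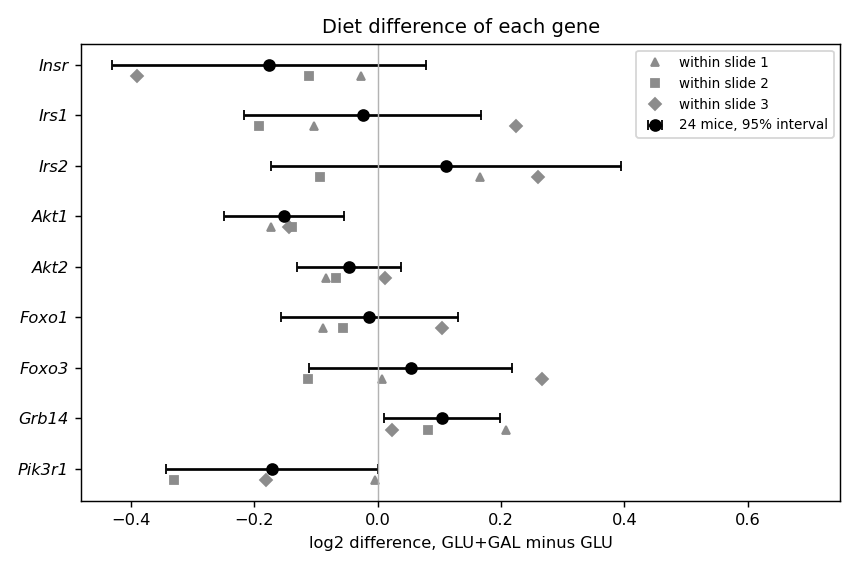
Difference GLU+GAL minus GLU on the log2 scale for each gene, with the 95% interval of the fit over 24 mice in black and the values within each of the 3 slides in grey. Akt1 lies left of 0 on all 3 slides, and Irs1, Irs2, Akt2, Foxo1 and Foxo3 change sign between slides.

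No cell marker passed the adjusted threshold for diet, but the markers of hepatocytes and Kupffer cells mostly lay lower in GLU+GAL. Over all genes 49.2% were lower in mean and 2.66% were lower at an unadjusted p under 0.05. Of 10 hepatocyte markers, 9 were lower in GLU+GAL (4 at an unadjusted p under 0.05), and the per-mouse mean of the list ran from -0.01 to 0.31 in GLU+GAL livers and from 0.07 to 0.47 in GLU livers. Of 10 Kupffer cell markers, 10 were lower (5 at an unadjusted p under 0.05), with per-mouse means from -0.59 to 0.30 in GLU+GAL livers and from -0.18 to 0.77 in GLU livers. No marker of either list was at background on any array. Markers of other liver cells went both ways, with 3 higher and 4 lower of 7 endothelial, 3 higher and 4 lower of 7 stellate, and 3 higher and 1 lower of 4 tested cholangiocyte markers, none at an unadjusted p under 0.05. With the diet means removed, Grb14 correlated with the Kupffer list at r = -0.43 (permutation p = 0.0401, adjusted over 27 relations 0.243) and Irs1 with the hepatocyte list at r = 0.49 (permutation adjusted p = 0.228). Irs2 correlated with the hepatocyte list at r = 0.42 (permutation p = 0.045, adjusted 0.243). The part of the markers in the diet differences was not tested.

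The rest of the pathway was described from lists of receptors and ligand-side genes, adaptors, lipid kinases and phosphatases, downstream kinases, inhibitors and FOXO factors. Leaving out the 9 genes, 60 of 65 listed genes were tested, 31 higher and 29 lower in GLU+GAL, with a median difference of 0.0062 against 0.0013 over all genes. None passed the adjusted threshold, and 2 of 60 passed an unadjusted p under 0.05, where 4.3% of all genes did, so the share was no larger than the background. These were Trib3, an inhibitor that binds AKT, at 0.45 ± 0.18 (SE, p = 0.0155) and, chosen after its value was seen, Enpp1, an inhibitor of the receptor, at -0.15 ± 0.06 (SE, p = 0.0287). Foxo4 and Foxo6 did not pass the filter.

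Genes that respond to the pathway were listed apart. Of 18 genes that FOXO factors are known to activate, other than the 9, 11 were higher and 7 lower in GLU+GAL. The cell cycle inhibitor gene Cdkn1b was higher in 11 of 12 GLU+GAL mice than the GLU mean, at 0.13 ± 0.05 (SE, limma p = 0.0136, adjusted p = 0.999). Of 13 genes that insulin is known to induce in liver, 2 were higher and 11 lower in GLU+GAL, with a median of -0.12. Over all genes 49.2% were lower, with a median of 0.0013. At an unadjusted p under 0.05 there were 2 of 13, both lower. The per-mouse mean of the list ran from -0.39 to 0.86 in GLU+GAL livers and from -0.41 to 0.98 in GLU livers, so the groups overlapped. How far these genes move together was not tested. No gene of either list passed the adjusted threshold. Named after its value was seen, the glycogen-targeting subunit gene Ppp1r3b differed by -0.13 ± 0.06 (SE, limma p = 0.048, adjusted p = 0.999), and its fit dropped 1 GLU spot that was flagged.

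The genes differed widely in how far they varied between mice of the same diet. The SD of the log ratio over 24 mice with the diet means removed was 0.366 for Irs2 and 0.327 for Insr. Of all genes, 3.88% and 5.68% had a larger one. For Insr this SD also holds variation of the pool channel, described below. With Agilent's processed signals Foxo3 exceeded Irs2 (0.411 and 0.399), and in the authors' value table Insr did (0.474 and 0.369). The SD was 0.242 for Irs1, 0.213 for Pik3r1, 0.203 for Foxo3 and 0.174 for Foxo1, above the median of 0.169 over all genes. Akt1 (0.105), Grb14 (0.0988) and Akt2 (0.0832) were among the steadier genes, with 91.8%, 94.0% and 97.6% of genes more variable. From the lowest to the highest mouse Irs2 spanned 2.48-fold and Akt2 1.22-fold.

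The pool gave the spread of each probe without differences between mice, since every array held the same Cy3 material. For Irs2 the SD of the Cy5 signal over mice was 5.82 times that of the pool over arrays (0.389 and 0.0668). The ratio was 6.44 for Foxo1, 3.77 for Pik3r1, 2.87 for Irs1 and 2.27 for Akt1. It was 1.61 for Grb14 and 1.57 for Akt2. Insr and Foxo3 depended on the array of GLU+GAL mouse 4, on which the pool gave Foxo3 7.41 on the log2 scale, against 7.84 to 8.10 on the other arrays. The ratio was 1.37 for Foxo3 on all 24 arrays and 2.64 without that array, where the pool SD was 0.0688 in place of 0.130. For Insr it was 0.814 on all arrays (0.175 and 0.215) and 1.09 without that array (0.157 and 0.144). The SD of the Insr log ratio was 0.207 without it. For the other 7 genes the ratio without it lay between 1.56 and 6.38. The Insr log ratio correlated with its own pool signal at r = -0.89, and at -0.74 without that array. With its own Cy5 signal r was 0.69. For Foxo3 the r with the pool was -0.49 and -0.47. On all arrays the other genes lay between -0.15 (Akt2) and 0.36 (Pik3r1). The spread of the Insr log ratio is therefore not a measure of differences between mice alone.

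**Figure D3:**
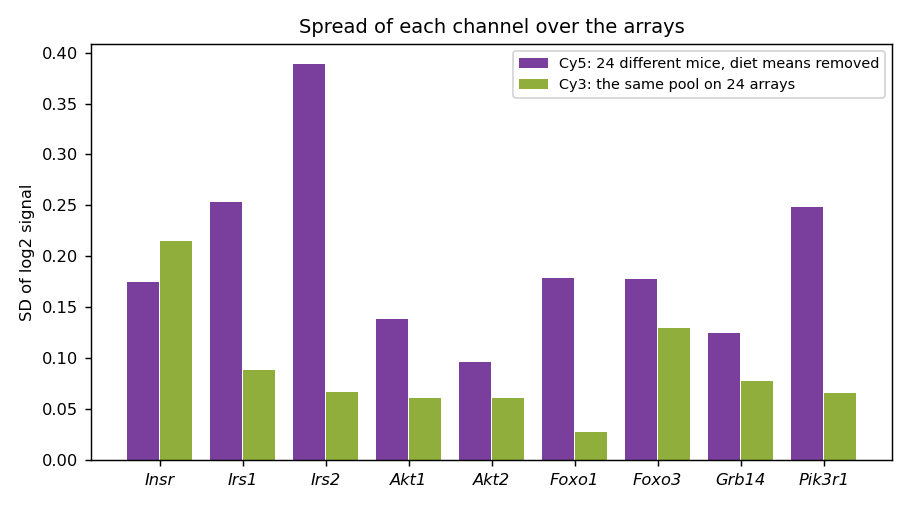
SD of the log2 signal for each gene in Cy5 over 24 different mice with diet means removed (purple) and in Cy3 over the same pool on 24 arrays (green). Irs2 has the tallest Cy5 bar at 0.389 with a pool bar of 0.0668, and the Insr pool bar (0.215) is above its Cy5 bar (0.175), which it is not without the array of GLU+GAL mouse 4 (0.144 and 0.157).

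No pair of the 9 genes passed the test for moving together from mouse to mouse. Among their 36 pairs, with the diet means removed, Pearson's r ran from -0.34 to 0.46, positive in 17 and negative in 19, with a median absolute value of 0.18. No pair passed an adjusted permutation p of 0.05, and 3 passed it unadjusted. With each array normalised by its median alone in place of loess, 15 pairs passed the adjusted test. Insr and Pik3r1 had r = 0.46 and rho = 0.38 (permutation p = 0.0262, adjusted 0.544), but r = 0.22 without GLU+GAL mouse 4 and 0.33 without the mice farthest from the Insr median. Akt2 had r = 0.41 with Foxo1 and 0.42 with Foxo3 (adjusted permutation p = 0.544 for both), which in Cy5 alone were 0.09 and 0.51.

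**Figure D4:**
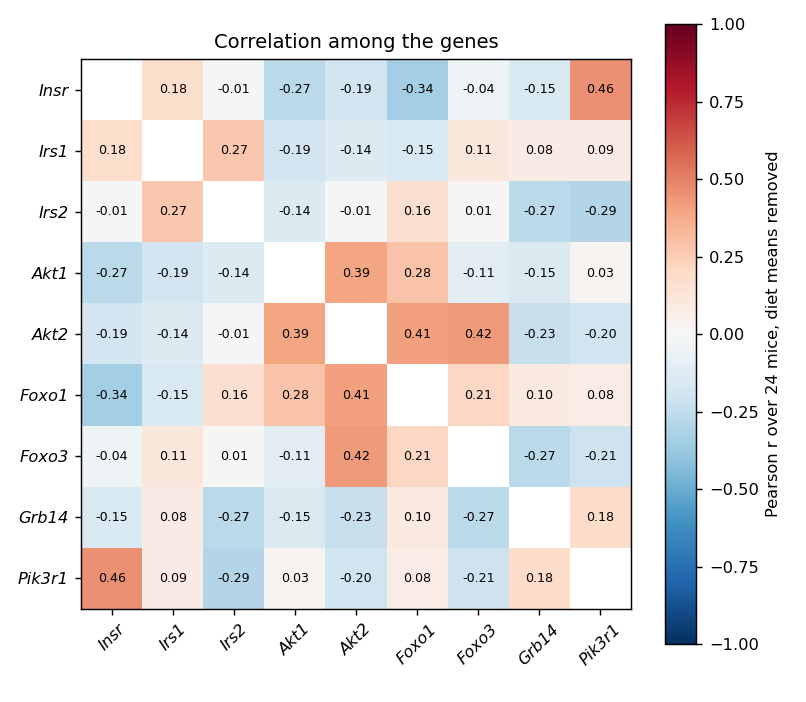
Pearson's r for each pair of the 9 genes over 24 mice after removal of the diet means, in colour and digits, with red for positive and blue for negative. The highest value is 0.46 for Insr with Pik3r1, and no pair passed the adjusted test.

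Irs2 moved with 2 of 18 genes that FOXO factors are known to drive, and 1 of these relations, with Igfbp1, kept its call under every setting tried. The relations of the 9 genes with 30 such FOXO-activated or insulin-induced genes, 270 in all, were computed after the genes' own values had been seen, with permutation p adjusted over the 270, and 5 passed. Irs2 with Igfbp1 was the strongest, at r = 0.84 and rho = 0.79 (permutation p = 1e-05, the smallest the resamples can give, adjusted 0.0027). Igfbp1 was also the gene whose deviations were most like those of Irs2 among all genes tested.

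Igfbp1 itself ranged from -1.30 through a median of -0.34 to 1.11 in GLU+GAL livers, and from -1.54 through -0.47 to 1.03 in GLU livers. The 4 livers with the most Irs2 were also the 4 with the most Igfbp1, 2 from each diet: GLU+GAL mice 1 and 3 had Igfbp1 at 1.11 and 0.94, and GLU mice 12 and 1 had 1.03 and 0.95. The diets themselves did not differ detectably in Igfbp1 (0.01 ± 0.29, SE). The relation held within GLU+GAL (r = 0.81) and within GLU (0.87), within slides 1, 2 and 3 (0.92, 0.81 and 0.82), in Cy5 alone (0.82) and without the mice farthest from the Irs2 median (0.77). Without GLU+GAL mouse 4 it was 0.84 and without mouse 12 it was 0.87.

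Irs2 with Pck1 had r = 0.66 and rho = 0.66 (permutation adjusted p = 0.0394), and 0.53 without the mice farthest from the Irs2 median. It was 0.74, 0.57 and 0.81 within slides 1, 2 and 3. The call was lost when any 1 of 16 of the 24 mice was left out (GLU 1, 2, 3, 5, 6, 7, 8, 10, 11 or 12, or GLU+GAL 2, 3, 7, 8, 9 or 10), with r between 0.59 and 0.72 over all 24 omissions. Irs2 was positively correlated with 14 of 18 FOXO-activated genes, with a median r of 0.24, and with 5 of 12 insulin-induced genes, with a median of -0.01. The insulin-induced genes here leave out Ppp1r3b, which lacked a value in 1 mouse. A high count with FOXO-activated genes was not particular to Irs2. Among the 9 genes it ran from 4 of 18 for Pik3r1 (median -0.25) to 15 of 18 for Foxo3 (0.14), with Irs1 at 14 (0.12). Over all genes 46.6% had a positive r with Irs2, 46.9% with Pik3r1, 55.9% with Foxo3 and 53.5% with Irs1. Klf15, a transcription factor of amino acid use in fasting, stood at 0.52, the tyrosine breakdown enzyme Tat at 0.49 and the glucose-6-phosphatase gene G6pc at 0.38, none past the adjusted threshold (permutation adjusted p = 0.253, 0.336 and 0.517).

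**Figure D5:**
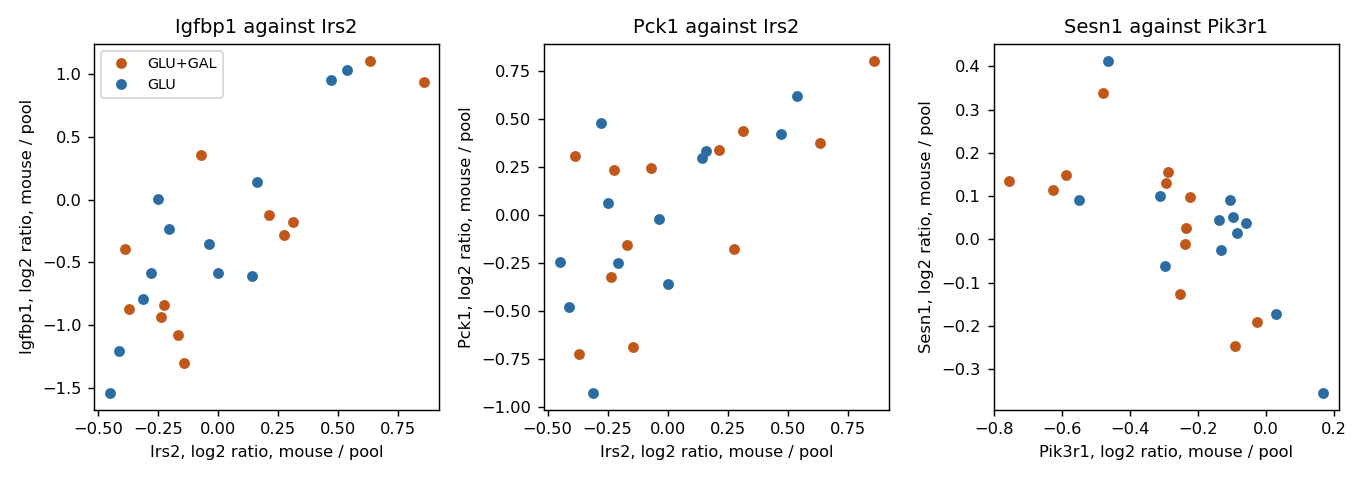
Log2 ratios to the pool in 24 livers, GLU+GAL orange and GLU blue, for Igfbp1 against Irs2, Pck1 against Irs2 and Sesn1 against Pik3r1. Points of both diets lie along the same rising band for Igfbp1 (r = 0.84) and along a falling one for Sesn1 (r = -0.71).

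The other 3 relations belonged to Pik3r1, Foxo3 and Grb14. Pik3r1 ran against Sesn1, a stress-induced gene that FOXO factors activate, at r = -0.71 and rho = -0.75 (permutation adjusted p = 0.0135), with -0.64, -0.75 and -0.76 within slides 1, 2 and 3 and -0.73 in Cy5 alone. Without the mice farthest from the Pik3r1 median it was -0.78, and the call was lost without GLU mouse 7 or GLU mouse 8 (-0.66 and -0.68). After normalisation of each array by its median alone in place of loess, r was -0.0045. Foxo3 followed Apoc3, which encodes an apolipoprotein that slows triglyceride clearance, at r = 0.72 and rho = 0.71 (permutation adjusted p = 0.0081) and 0.74 without the mice farthest from the Foxo3 median. It was 0.77 and 0.74 within slides 1 and 2, -0.11 within slide 3 and 0.41 in Cy5 alone. Grb14 followed Mttp, the gene of the transfer protein that loads lipid onto lipoproteins, at r = 0.68 (permutation adjusted p = 0.0385), while rho, at 0.63, had an adjusted p of 0.0918. Without the mice farthest from the Grb14 median r was 0.64, and within slides 1, 2 and 3 it was 0.52, 0.64 and 0.87. In Cy5 alone it was 0.52. The call was lost when any GLU mouse but mouse 4, or GLU+GAL mouse 3, was left out (r from 0.59 to 0.73 over all omissions). It was also lost in 5 of 7 alternative settings of the processing. For each of the 5 relations, the share of all genes with an r as far from 0 with the same member was also taken. It was 0.0054% for Irs2 with Igfbp1 and 0.135% for Irs2 with Pck1. For Grb14 with Mttp it was 0.157%, for Foxo3 with Apoc3 0.249% and for Pik3r1 with Sesn1 0.632%.

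Foxo1 had no relation past the threshold. Its r was positive with 12 of 12 insulin-induced genes, with a median of 0.16. It was positive with 11 of 18 FOXO-activated genes, where 56.0% of all genes were positive with Foxo1. Akt2 and Foxo3 were each positive with 11 of 12 insulin-induced genes, with larger medians (0.30 and 0.26), where 54.9% and 55.9% of all genes were positive with them. The lowest count among the 9 genes was 3 of 12, for Irs1 and Pik3r1 (53.5% and 46.9% over all genes). How far the insulin-induced genes move together was not tested, so they cannot be counted as separate results. With Igfbp1 the r of Foxo1 was 0.14 and with G6pc -0.0012. Whether the relations of Irs2 and Foxo1 differ was not tested.

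The genes most like each of the 9 over 24 mice are given as a description, as r on deviations from the diet means. After Igfbp1, Irs2 was closest to Anapc5 (0.76), a subunit of the cell cycle ubiquitin ligase, and the chromatin remodeller Chd2 (0.76). Pik3r1 was closest to Tulp4 (0.82), Scaf8 (0.82) and Nufip2 (0.81), and these stayed at 0.83, 0.70 and 0.71 in Cy5 alone. Irs1 was closest to Gnpda1 (0.78), Kif1c (0.76) and Rabgap1l (0.76). For Foxo1 they were Wdr26 (0.78), Zfp574 (0.75) and Tbc1d22b (0.71), and for Akt1 the growth factor gene Bmp2 (0.67), Plcd3 (0.64) and Rtkn (0.64). Grb14 was closest to Tsc22d1 (0.75), Dhx15 (0.75) and Gpd1 (0.73). The nearest genes of Insr were Gm30500 (0.91), E2f7 (0.91) and Zfp882 (0.91), which in Cy5 alone had 0.56, 0.07 and 0.49 and without GLU+GAL mouse 4 had 0.75, 0.79 and 0.78. Those of Akt2 (Olfr1048, Chaf1a and Slc3a2, 0.73 to 0.80) were 0.24 to 0.50 in Cy5 alone, and those of Foxo3 (Gm8709, Olfr373 and Cox6b1, 0.77 to 0.79) were 0.52 to 0.61.

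Insr also ran against the skeletal muscle markers, at r = -0.82 (permutation adjusted p = 0.0408 over 27 relations), where rho was -0.50 (adjusted 0.204). GLU+GAL mouse 4, the lowest in Insr, had the highest muscle list mean, 0.74, against 0.30 for the next mouse. Of 7 muscle markers 5 passed the filter and 3 were well above background on all arrays, while the defining markers Acta1 and Ckm did not pass. Without the mice farthest from the median of the muscle list, mouse 4 among them, r was -0.41. The relation without mouse 4 alone was not tested. Of all genes, 17.0% had an r under -0.5 with Insr, so a negative r of some size was not particular to muscle markers.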

How the data were processed

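The authors deposited scanner files of spot intensity for Cy5 and Cy3. Per the submitters' processing notes, these came from Agilent Feature Extraction 10.7.3.1. The authors also deposited a table of log2 values for 29287 features, and no source used here states its scaling. The log10 ratios and processed intensity values in the deposited files are Feature Extraction's own. Each value column matched its own array best (24 of 24).

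Mean signals were background-corrected by normexp (offset 50) and loess-normalised within arrays (limma 3.58.1, R 4.3.3), with controls at weight 0. Flagged spots were left out and spots of a probe averaged. Genes whose brightest probe was well above background in Cy5 on at least 6 arrays of a diet (18653) were tested with lmFit and eBayes over 24 arrays, 2-sided, with Benjamini-Hochberg adjustment. Permutation tests were 2-sided with 100000 resamples, shuffled within diet for correlations (SciPy 1.17.1). Steps were tested on simulated data. Each of 3 slides held both diets equally and was scanned once. The labels name separate mice.

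The members and lists were chosen with earlier results of these data known. All 9 members were named, with each pathway-list gene at an unadjusted p under 0.01 or else the 3 smallest, and the 3 genes most like each member that have a RefSeq symbol. Motifs were searched in RefSeq promoter windows. The build of the probe positions was not established, so only their chromosomes are given. The number of arrays limits the precision. One gene of the insulin-induced list is not reported here by name.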

Additional observations from a re-analysis of the deposited data

How the results depend on the processing

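Over 15 alternative settings (background correction, processed signals, Cy5 alone, the authors' value table, normalisation, filter, probe rule, slide or replicate block, moderation, weights, single slides) and 24 omissions of a mouse, 0 of 9 genes passed the adjusted threshold. Insr, Akt1, Grb14 and Pik3r1 kept their direction throughout. The 3 genes at an unadjusted p under 0.05 became 1 with the authors' value table (Grb14), 1 with the mean of all probes (Pik3r1), 1 within slide 1 (Grb14), 1 within slide 2 (Pik3r1) and 0 with median normalisation, and 1 to 3 when a mouse was left out (1 without GLU 3, GLU 6, GLU 11 or GLU+GAL 2). Within slide 3 none of the 3 passed (Akt1 p = 0.117, Grb14 0.813 and Pik3r1 0.292 in limma) while Irs1 (0.23, p = 0.0432) and Foxo3 (0.27, p = 0.0143) did. Small differences turned: Irs1 to 0.0017 and Akt2 to 0.0050 in the authors' table, Irs2 to -0.0934 and Foxo3 to -0.11 within slide 2, and Irs1 to 0.23, Akt2 to 0.0123 and Foxo1 to 0.10 within slide 3. With a mouse left out Irs1 ran from -0.0633 to 0.0254 and Foxo1 from -0.0467 to 0.0121. Of the 36 pairs, 0 passed the adjusted test in any omission or alternative except median normalisation, where 15 did. Of the 270 relations, which with their alternatives were chosen after seeing the data, 5 passed, and 47 did with median normalisation, 2 in Cy5 alone, 2 with the mean of all probes, 1 with processed signals and 1 in the authors' table, and 2 to 6 with a mouse left out. Irs2 with Igfbp1 kept its call in all 7 alternatives (r from 0.78 to 0.85) and 24 omissions (0.81 to 0.87). Of the 7 alternatives, Irs2 with Pck1 lost its call in 4 and Pik3r1 with Sesn1 in 3. Foxo3 with Apoc3 lost it in 5 (r from 0.41 to 0.76), as did Grb14 with Mttp (0.44 to 0.87). The count of members above the median SD stayed at 5 or 6. The causes were not tested.

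Nothing in the labels says that a replicate number marks shared mice, litters or days, and the data did not settle it: same-numbered mice deviated together at r from -0.38 to 0.52, over 0.1 in 8 of 12 pairs, and 4 correlated best with their own number. With the replicate block, 0 of 9 genes passed the adjusted threshold, Akt1, Grb14 and Pik3r1 still had an unadjusted p under 0.05, and 1123 genes of all had an unadjusted p under 0.05, against 803. That count was 379 with median normalisation, 1242 with no filter, 1270 within slide 1 and 1632 within slide 2. Leaving out GLU 3 gave 1 adjusted call among all genes. Dim probes limit Insr and Foxo3, whose signal was nearest to background.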
